A study of Mus musculus with 58 samples.

Results

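Fluoxetine was compared with vehicle in the prefrontal cortex of wild-type mice, using all 20 libraries with that genotype and either treatment, of the 58 in the study. They were chosen by their labels, not by any value: 10 libraries of wild-type (WT) C57BL/6J pups given fluoxetine, 5 female and 5 male, and 10 of WT pups given vehicle, again 5 and 5. All pups were sampled at postnatal day 25, after they had taken up drug or vehicle with maternal milk between days 3 and 24, for 3 weeks. The study as a whole has 12 groups, adding pups heterozygous (HT) for a Tbl1xr1 knock-in allele and pups given lithium. The sources used here do not give the dose. The labels name no dam or litter, so differences between litters and the drug cannot be told apart. They also do not say that each library is 1 animal. Every p-value therefore reflects only how far libraries spread within groups, which may be technical. Unless stated otherwise, that spread was estimated over all 12 groups together.

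Fluoxetine blocks the serotonin transporter, which clears serotonin from around axon terminals, and so prolongs serotonin signalling at receptors on cortical pyramidal cells and interneurons. In rodents the first weeks after birth are a period in which serotonin axons grow into the prefrontal cortex and in which exposure to such drugs is known to have lasting effects on behaviour. Serotonin also acts on the hypothalamic axis that releases glucocorticoids, hormones that enter brain cells, bind the glucocorticoid receptor and switch on a well-known set of genes.

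Values are read counts normalised for library size, and changes are differences of log2(value + 1) between fluoxetine and vehicle, with the female and male differences weighted equally and with a standard error (SE). A gene is said to have risen or fallen, or to be called, when its Benjamini-Hochberg adjusted p from limma over 16606 tested genes was under 0.05. The libraries held between 23.53 and 35.01 M reads. Markers of excitatory neurons such as Camk2a were high in every group, with summed levels from 148000 to 211000. Markers of the neighbouring olfactory bulb were also present and uneven, with summed levels of 12 genes from 4380 in 1 vehicle male to 43600 in another. Choroid plexus markers stood at 33400 in vehicle female 4, where the median of that group was 316.

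Of the 16606 genes, 61 were called, which is 0.367% of those tested: 26 rose (0.157%) and 35 fell (0.211%). Most changes were small. The risen genes had a median of 0.27 and the fallen genes a median of -0.24, and 15 of the 26 and 26 of the 35 lay within 0.3 of 0. All 61 had the same sign in females and in males. In 16 of the risen and 18 of the fallen genes, all 10 fluoxetine libraries lay on the side of the change, measured from the vehicle mean of their own sex. Over all 16606 genes this held for 353. Even so, no gene of the 16606 (0%) had its 10 fluoxetine values wholly apart from its 10 vehicle values. Within females, 35 of the 61 had groups that did not overlap, against 4.78% of all genes, and within males 6 of 61, against 0.741%. Since the 61 were called from these same libraries, these counts describe the calls and lend them no support. For 56 of them the annotation gives a gene symbol, and the other 5 are predicted genes or clones.

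**Figure D1:**
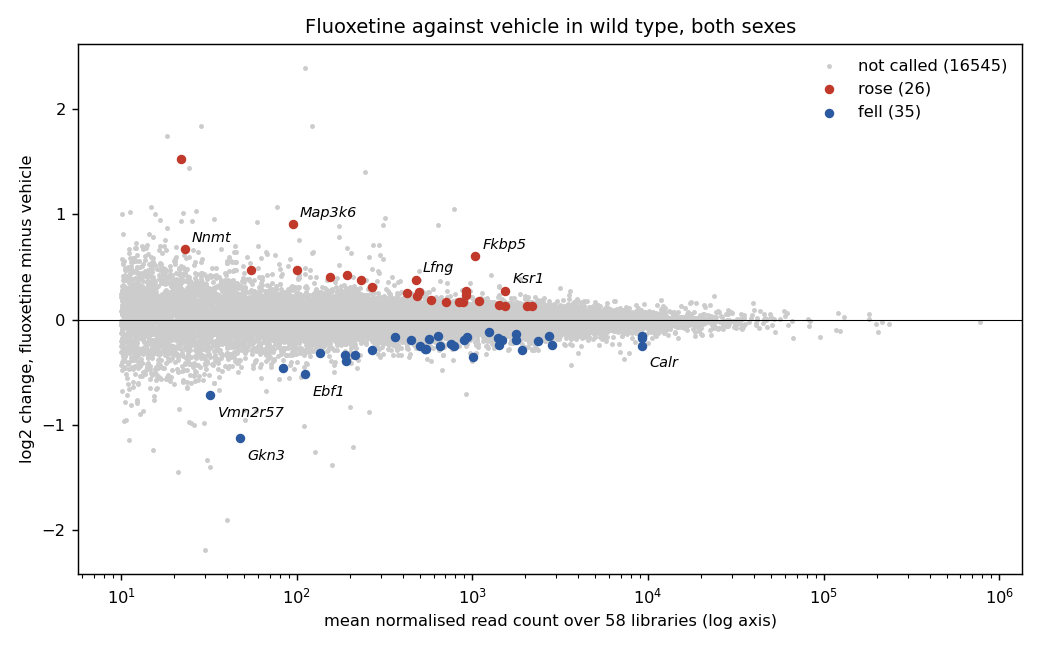
Log2 change of fluoxetine against vehicle (vertical axis) for each of the 16606 tested genes, against its mean normalised read count over 58 libraries (horizontal log axis). The 26 genes that rose are red, the 35 that fell are blue, and most of both sit within 0.3 of the line at 0.

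Map3k6 and Fkbp5, of the list of glucocorticoid-responsive genes, rose, as did Klf15, which is not in that list. Map3k6 had the smallest p of all tested genes. Map3k6 (ENSMUSG00000028862, chromosome 4, 133240818 to 133252929, plus strand, GRCm38), a kinase of the stress-activated MAP kinase cascades, had 46.9, 59.8 and 133 normalised counts as lowest, median and highest vehicle value. With fluoxetine it had 97.9, 124 and 154. Only vehicle male 5, at 133, reached into the fluoxetine range, and the gene rose by 0.91 ± 0.142, or 1.88-fold (limma adjusted p = 0.00082). Fkbp5 encodes a co-chaperone that is induced by the glucocorticoid receptor and in turn lowers that receptor's affinity for hormone. Its values went from 735, 869 and 1250 with vehicle to 1040, 1280 and 1870 with fluoxetine, and 9 of the 10 vehicle libraries lay below every fluoxetine library. It rose by 0.60 ± 0.128, or 1.52-fold (limma adjusted p = 0.0193). Klf15, a zinc finger transcription factor known as a direct target of the receptor, had 406, 442 and 545 with vehicle and 488, 554 and 604 with fluoxetine. Of the vehicle libraries 8 lay below every fluoxetine library, and it rose by 0.26 ± 0.0618 (limma adjusted p = 0.0371).

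The 250 bases before the RefSeq start site of Map3k6 (GRCm38.p6) held 1 match to the palindromic glucocorticoid response element, read as GNACANNNTGTNC on either strand. It is printed because Map3k6 was the gene with the smallest p, 5′ to 3′ with the fixed letters of the match in capitals.
Map3k6 (chr4:133240617-133240669, plus strand): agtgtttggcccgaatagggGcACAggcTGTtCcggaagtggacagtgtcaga
The match starts 181 bases before the start site. In all, 119 of 27025 genes (0.44%) held one, as did 3 of 20 listed glucocorticoid-responsive genes: Map3k6, Mt1 and Sgk1. The windows of Fkbp5 and Klf15 held none, which says only that these letters were not in those bases.

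The wider list of glucocorticoid-responsive genes was uneven. Of 22 members tested, 18 lay above 0, with a median of 0.11, beside 50.9% of all genes and a median of 0.00 over all genes. Only Map3k6 and Fkbp5 rose, and none fell. The list was chosen with earlier results of these data known. The lipid-droplet gene Plin4 had the largest difference, 1.03 ± 0.288, from a vehicle median of 17.5 to a fluoxetine median of 44.3, but 1 vehicle library at 75.5 exceeded every treated one (limma adjusted p = 0.0804). Sult1a1, a sulfotransferase, was at 0.60 ± 0.163 (limma adjusted p = 0.0771), and Zbtb16, a zinc finger repressor, at 0.35 ± 0.0897 (limma adjusted p = 0.0654). Both missed the threshold. Several textbook targets of the receptor were closer to 0: Sgk1, an ion-transport kinase, was at 0.12 ± 0.0699, Tsc22d3, the leucine zipper GILZ, at 0.10 ± 0.0992, and the clock gene Per1 at -0.02 ± 0.122. Mt2, a metallothionein, was at 0.00 ± 0.107.

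The receptor itself, Nr3c1, was lower rather than higher in the fluoxetine libraries, at 1980, 2540 and 2910 against 2570, 2870 and 3160, a difference of -0.19 ± 0.0607 that did not pass (limma adjusted p = 0.117). Nr3c2, the mineralocorticoid receptor, was at -0.04 ± 0.0712. Among 14 genes for the glucocorticoid receptor and the chaperones that hold it, 3 lay above 0 and the median was -0.05. Fkbp5 was the one call in that list.

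**Figure D2:**
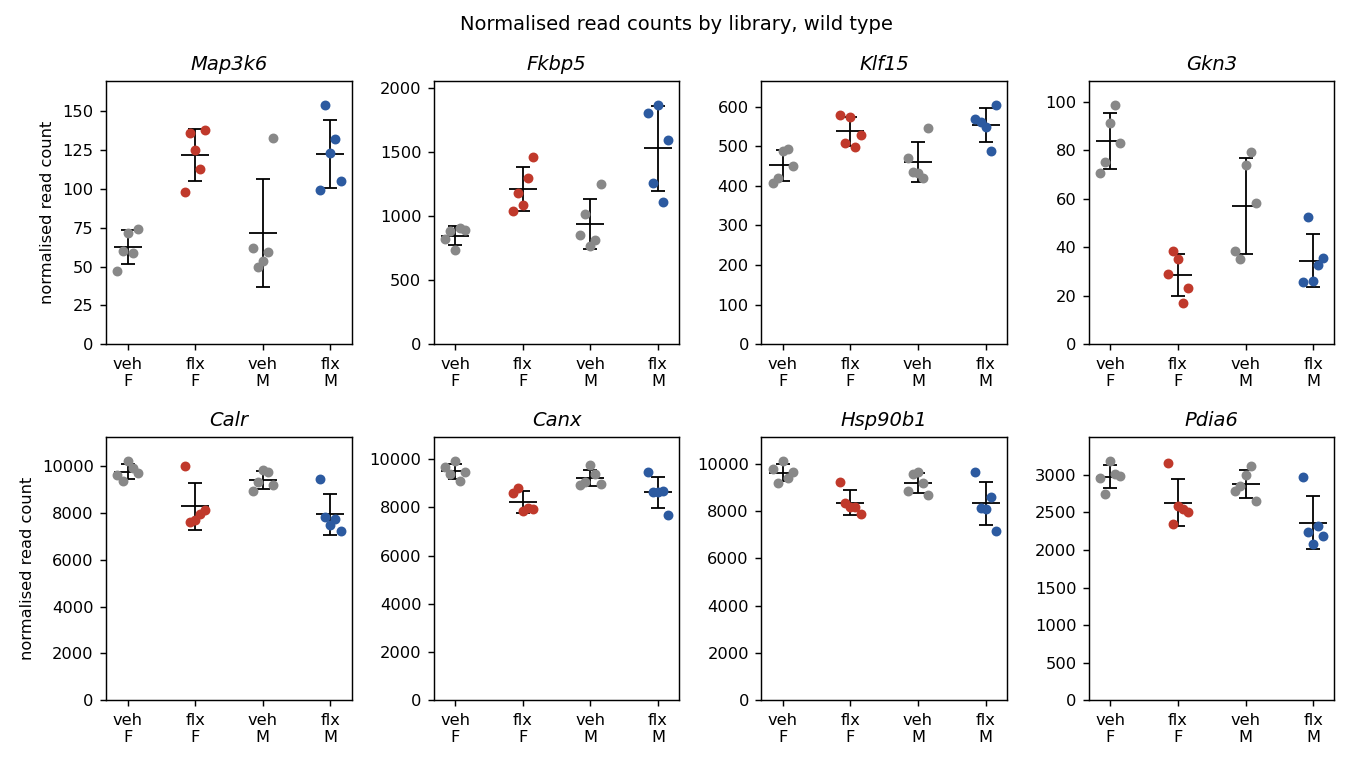
Normalised read counts (vertical axes, from 0) of 8 called genes in each WT library, by treatment (veh, vehicle; flx, fluoxetine) and sex (F, M), with 5 libraries per group; horizontal bars are means and error bars SD. In the lower row of chaperone genes, fluoxetine female 1 and fluoxetine male 1, the leftmost points of their groups, stand highest except for Canx, where female 1 does not.

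Genes for chaperones of the endoplasmic reticulum (ER) were among the fallen. These proteins fold and check newly made secreted and membrane proteins, and their genes are commonly induced together when unfolded protein builds up. Of 22 listed genes 18 lay below 0, with a median of -0.12, and 4 fell: Calr, Canx, Hsp90b1 and Pdia6. None rose. Over all tested genes, 0.211% fell. At an unadjusted p under 0.05 there were 13 of the 22, beside 2221 of all 16606. The chaperone list was chosen with earlier results of these data known, so these shares are a description only.

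A shared promoter element is known for this family, the ER stress response element, read here as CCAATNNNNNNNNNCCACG on either strand. It was looked for in the 250 bases before the RefSeq start sites of GRCm38.p6. The stretches that hold it in the 4 fallen chaperone genes are printed because all 4 held a match. They run 5′ to 3′ on the strand of the gene, and capitals mark the fixed letters of the match; in Calr, and in the second match of Hsp90b1, these read as the reverse complement.
Calr (chr8:84847055-84847113, minus strand): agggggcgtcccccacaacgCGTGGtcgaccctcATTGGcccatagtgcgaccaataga
Canx (chr11:50325780-50325838, minus strand): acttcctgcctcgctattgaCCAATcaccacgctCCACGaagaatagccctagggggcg
Pdia6 (chr12:17266471-17266529, plus strand): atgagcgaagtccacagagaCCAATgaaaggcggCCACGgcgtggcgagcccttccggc
Hsp90b1 (chr10:86705513-86705676, minus strand): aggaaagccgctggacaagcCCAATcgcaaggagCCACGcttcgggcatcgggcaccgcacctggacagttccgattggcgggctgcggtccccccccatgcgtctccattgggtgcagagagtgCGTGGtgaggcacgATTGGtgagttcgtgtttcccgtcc

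Across all genes with a window the element is rare: 35 of 27025, or 0.13%, held it. It was in 7 of the 19 listed chaperone genes with a window (36.8%), in 4 of 30 fallen genes (13.3%) and in 0 of 20 risen genes. The element is known for this family, so a high share in the list is no result of these data. The 4 fallen genes are the same 4 chaperone genes printed above. The 7 include Creld2, Dnajc3 and Hspa5, which were not called. The 12 tested genes that held it outside the list had a median of 0.11, and 4 of them lay below 0. None of the 12 was called, and some had wide SEs, such as Xlr3b at 0.68 ± 0.635. Any part of the element in the falls was not tested. A match is a description of the letters and not evidence of a bound site.

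Calreticulin (Calr), a calcium-binding lectin chaperone, had vehicle values of 8920, 9660 and 10200 and fluoxetine values of 7220, 7780 and 10000. Of the 10 fluoxetine libraries 8 lay below every vehicle library, and the other two, female 1 at 10000 and male 1 at 9450, lay among the vehicle values. It fell by 0.25 ± 0.0475 on the log2 scale (limma adjusted p = 0.00923). Calnexin (Canx), its membrane-bound relative, had 8930, 9380 and 9920 against 7680, 8610 and 9460, with 9 of 10 fluoxetine values below the lowest vehicle value, and fell by 0.15 ± 0.0366 (limma adjusted p = 0.0391). Hsp90b1, the ER member of the HSP90 family, had 8660, 9480 and 10100 against 7150, 8160 and 9650, and fell by 0.18 ± 0.0422 (limma adjusted p = 0.0391). Pdia6, a disulfide isomerase, had 2650, 2970 and 3180 against 2080, 2420 and 3160, and fell by 0.24 ± 0.0592 (limma adjusted p = 0.0496). The edgeR quasi-likelihood test did not call Pdia6 (adjusted p = 0.0567). In Calr, Hsp90b1 and Pdia6 the same pair of treated libraries stood highest, and in Canx male 1 did.

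Hspa5, the BiP chaperone, was also lower, with a wider spread. Its vehicle values were 7360, 7920 and 8390 and its fluoxetine values 5490, 5920 and 9180, a difference of -0.31 ± 0.0892 that did not pass (limma adjusted p = 0.0841). The disulfide isomerase Pdia4 was at -0.32 ± 0.0977 (limma adjusted p = 0.107) and the secreted factor Manf at -0.23 ± 0.063 (limma adjusted p = 0.0801). In both, 8 of 10 treated libraries lay below all vehicle libraries. The median of the list, taken per library against the vehicle mean of its sex, was between -0.20 and -0.13 in 8 of the 10 fluoxetine libraries, at 0.02 in female 1 and at 0.08 in male 1.

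Female 1 differed in other ways too. It had the highest summed markers of endothelium (18100), myelin (242000) and striatum (17100) among the fluoxetine females. With female 1 left out there were 175 called genes, and with male 1 left out 347, and in both cases all 61 stayed called. Their part in the chaperone values beyond this was not tested.

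For sensors and transducers of ER stress, the list of 20 had 8 members above 0, a median of -0.00 and no call, with the transcription factor Xbp1 at -0.17 ± 0.0653 (limma adjusted p = 0.23) and the degradation adaptor Sel1l at -0.16 ± 0.0433 (limma adjusted p = 0.0697). Other parts of the secretory route did hold calls. Spcs3, a subunit of the signal peptidase, fell by 0.20 ± 0.0424 (limma adjusted p = 0.0187), from 2240, 2500 and 2600 to 1840, 2160 and 2410. Ccpg1, a receptor for the autophagy of ER membrane, fell by 0.16 ± 0.0344 (limma adjusted p = 0.0246), and 9 of 10 vehicle libraries lay above every treated one. Ubxn2b, a cofactor of the p97 ATPase, fell by 0.20 ± 0.0435 (limma adjusted p = 0.0278). Sec24d, a cargo adaptor of the coat that carries proteins out of the ER, went the other way and rose by 0.26 ± 0.0568 (limma adjusted p = 0.0281). Cytosolic heat shock genes had 5 of 15 members above 0, a median of -0.05 and no call.

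Genes for the primary cilium, the antenna-like organelle that most neurons bear and that carries some serotonin receptors, gave 5 calls among 40 tested, 4 falls and 1 rise. Over all tested genes, 0.367% were called. The cilium list was also chosen with earlier results of these data known, so these shares are a description only. Overall 12 lay above 0 and the median was -0.03. Mkks, a chaperonin-like protein that assembles the BBSome coat, had vehicle values of 516, 563 and 599 and fluoxetine values of 407, 453 and 529. In 9 of 10 treated libraries it lay below all vehicle values, and it fell by 0.28 ± 0.0491 (limma adjusted p = 0.00415). Bbs7, a subunit of that coat, had 505, 545 and 597 against 415, 459 and 548 and fell by 0.25 ± 0.0454 (limma adjusted p = 0.00415), again with 9 of 10 below all vehicle libraries. Rpgrip1l, of the gate at the base of the cilium, fell by 0.23 ± 0.0541 (limma adjusted p = 0.0357), and the delta-tubulin gene Tubd1 by 0.31 ± 0.0766 (limma adjusted p = 0.0445). Nek10, a kinase of ciliated cells, rose by 0.41 ± 0.0858 (limma adjusted p = 0.0187), from 108, 133 and 159 to 149, 181 and 211.

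Cep290, also of the ciliary gate, was just short of the threshold at -0.27 ± 0.068 (limma adjusted p = 0.0539), and all 10 treated libraries lay below the vehicle mean of their sex. The Ift genes, which encode proteins that move cargo along the cilium, ranged from Ift80 at -0.17 (limma adjusted p = 0.0526), also just short, through Ift81 and Ift74 at -0.12 each, to Ift88 at -0.01 and Ift20 at 0.06. Outside the list, Tsga10 fell by 0.28 ± 0.0647 (limma adjusted p = 0.0357).

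**Figure D3:**
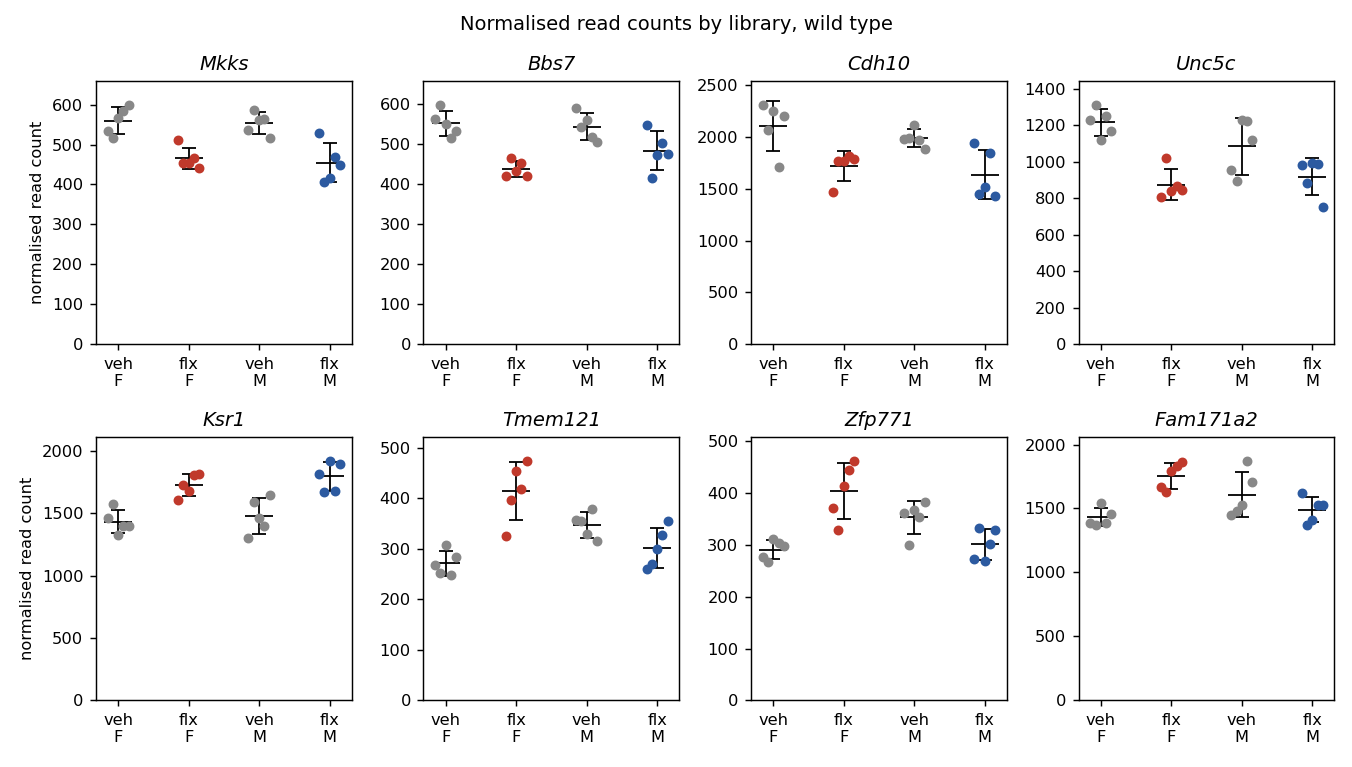
Normalised read counts (vertical axes, from 0) in each WT library, as in the plot of stress-hormone and chaperone genes, for 5 genes called over both sexes and for the 3 genes whose fluoxetine effect differed between the sexes. Tmem121, Zfp771 and Fam171a2 are higher with fluoxetine in females and not in males.

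Single genes with roles in axon guidance, adhesion and inhibition fell: Unc5c, Cdh10, Lrrtm3 and Gabra2. Unc5c, a netrin receptor that mediates axon repulsion, had 891, 1200 and 1310 with vehicle and 751, 874 and 1020 with fluoxetine. It fell by 0.36 ± 0.0722 (limma adjusted p = 0.0128), and was the single call among 48 guidance genes, whose median was -0.02. Cdh10, a classical cadherin, had 1710, 2030 and 2310 against 1430, 1770 and 1940 and fell by 0.29 ± 0.0559 (limma adjusted p = 0.00923). Its list of 26 cadherins and protocadherins had 7 members above 0 and a median of -0.06. Lrrtm3, a postsynaptic adhesion protein of excitatory synapses, fell by 0.24 ± 0.0544 (limma adjusted p = 0.0308), in 10 of 10 libraries. Gabra2, the alpha-2 subunit of GABA-A receptors, fell by 0.13 ± 0.0307 (limma adjusted p = 0.0365), from a median of 1820 to 1630. In the list of GABA synapse genes 7 of 23 lay above 0, with a median of -0.07. The median transcript GC content was 44.1% for this list and 45.5% for the cadherin list, beside 49.4% for all tested genes. Tested genes of 43.6% to 45.7% GC had a median change of -0.028. The part of GC content in the 2 list medians was not tested. Glutamate receptor and postsynaptic density genes had 15 of 35 above 0 and no call.

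Several of the risen genes encode signalling proteins. Ksr1, a scaffold that brings the kinases of the Ras and ERK cascade together, showed the cleanest separation. Its values were 1300, 1430 and 1650 with vehicle and 1610, 1770 and 1920 with fluoxetine. In 9 of 10 treated libraries it exceeded every vehicle library, and within each sex the groups did not overlap. It rose by 0.28 ± 0.0568, or 1.21-fold (limma adjusted p = 0.0141). Ntsr1, the neurotensin receptor and a marker of layer 6 pyramidal cells, rose by 0.38 ± 0.0863 (limma adjusted p = 0.0338), from 159, 212 and 267 to 223, 274 and 296. It was the one call among 11 deep-layer markers, 7 of which lay above 0. Among 31 genes of Gq coupling and phospholipase C, Ntsr1 and Plcd3 were called, beside 0.367% of all tested genes. The median of that list was -0.02, and it changed sign in 4 of 34 alternative fits. This list too was chosen with earlier results of these data known. Plcd3, a phospholipase C, rose by 0.31 ± 0.069 (limma adjusted p = 0.0289), with 0.53 in females and 0.09 in males.

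Lfng, a glycosyltransferase that tunes Notch receptors, had 321, 452 and 477 against 441, 524 and 748 and rose by 0.38 ± 0.0814 (limma adjusted p = 0.0195). Hes5, a target gene of Notch, was at 0.48 ± 0.139 without passing (limma adjusted p = 0.0921). The Notch list was otherwise mixed, with 15 of 26 above 0 and a median of 0.02. That median fell below 0 when the trends with GC content and length were removed, and also without vehicle male 1. Plekha7, of adherens junctions, rose by 0.27 ± 0.0622 (limma adjusted p = 0.0357), and the kinase-like Rps6kl1 by 0.23 ± 0.055 (limma adjusted p = 0.0391).

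Among genes of blood vessels Gkn3, Calcrl and Ebf1 fell, and the largest change of any fallen gene was that of Gkn3, a gastrokine that in mouse brain marks the endothelium of arteries. It had 35.3, 74.5 and 98.7 counts with vehicle and 16.9, 30.8 and 52.5 with fluoxetine, and fell by 1.13 ± 0.201 (limma adjusted p = 0.00415). Calcrl, the receptor of CGRP and adrenomedullin, fell by 0.40 ± 0.0952 (limma adjusted p = 0.0402; 0.0509 by the edgeR quasi-likelihood test). Ebf1, a transcription factor of pericytes, fell by 0.52 ± 0.122 (limma adjusted p = 0.0365; 0.0567 by edgeR). Both therefore lost the call under edgeR. In the list of 7 CGRP and adrenomedullin genes Calcrl was the single call, and the median was 0.04.

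In bulk tissue fewer cells of a type and less RNA per cell cannot be told apart. Of 10 markers of mural cells, the smooth muscle and pericytes around vessels, 1 lay above 0, with a median of -0.14 and no call. Myh11, the smooth muscle myosin, was at -0.35 ± 0.0963 (limma adjusted p = 0.077) and Acta2 at -0.34 ± 0.117 (limma adjusted p = 0.162). Summed mural markers ran from 8400 to 10700 in the vehicle libraries and from 6620 to 10600 in the fluoxetine libraries. Of 13 endothelial markers 5 lay above 0, with a median of -0.14 and no call. Emcn was at -0.50 ± 0.134 (limma adjusted p = 0.0763) and Kdr, the VEGF receptor, at -0.34 ± 0.119 (limma adjusted p = 0.167). Slc2a1, the glucose transporter of the blood-brain barrier, was at 0.30 ± 0.0829 (limma adjusted p = 0.0774). The summed endothelial markers were at medians of 13600 and 13500 in vehicle and fluoxetine females and 13600 and 12900 in males. Their part in the fall of Gkn3, Calcrl and Ebf1 was not tested.

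Regulators of transcription and RNA were called in both directions with small changes. Gabpa, an ETS factor for mitochondrial and housekeeping promoters, fell by 0.25 ± 0.0593 (limma adjusted p = 0.0371), and Rbbp5, a core subunit of histone H3 methyltransferase complexes, by 0.12 ± 0.0277 (limma adjusted p = 0.0391), from 1180, 1250 and 1320 to 1050, 1150 and 1280. Mettl4, an RNA methyltransferase, fell by 0.25 ± 0.0462 (limma adjusted p = 0.00458). Rbm41, an RNA-binding protein of the minor spliceosome, fell by 0.33 ± 0.0807 (limma adjusted p = 0.0436). Mrtfa, an actin-regulated coactivator of serum response factor, rose by 0.13 ± 0.0302 (limma adjusted p = 0.0357), and Polr3e, a subunit of RNA polymerase III, by 0.18 ± 0.0394 (limma adjusted p = 0.027). The zinc finger genes Zbtb22 and Zfp865 rose by 0.17 each.

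Ribosome assembly and metabolism gave a further scatter of calls. Tbl3, a part of the complex that processes small-subunit ribosomal RNA, rose by 0.19 ± 0.0377 (limma adjusted p = 0.0128), while Mak16, needed for the large subunit, fell by 0.16 ± 0.0361 (limma adjusted p = 0.0338). Fastkd2, a mitochondrial RNA-binding protein, fell by 0.20 ± 0.0397 (limma adjusted p = 0.0128), and the mitochondrial protease Lonp1 rose by 0.13 ± 0.0307 (limma adjusted p = 0.0436; 0.0541 by edgeR). Nnmt, which methylates nicotinamide, rose by 0.67 ± 0.16 (limma adjusted p = 0.0391) at a low level, from 13.9, 17.2 and 25.6 counts to 21.0, 30.9 and 38.3, with no overlap within either sex. Phkb, a subunit of the kinase that starts glycogen breakdown, fell by 0.19 ± 0.0446 (limma adjusted p = 0.0365). Atp13a1, Psmd4 and Fbxw9 rose by 0.14, 0.13 and 0.22, and none of the 3 was called by edgeR.

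Structural genes of the ribosome and the respiratory chain lay mostly a little above 0. Of 80 ribosomal protein genes 71 lay above 0, with a median of 0.08, and of 94 respiratory chain genes and their assembly factors 69 lay above 0, with a median of 0.05. None of either list was called. Their processed pseudogenes can take up or lend reads, so these values are uncertain. Rpl14 was the lowest of the ribosomal genes, at -0.13 ± 0.0451 (limma adjusted p = 0.16).

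The remaining called genes were Srbd1 (-0.28 ± 0.0524), Gnpda2 (-0.18), Tbck (-0.16), Ccdc186 (-0.19), the Hippo kinase Stk4 (-0.17) and the vomeronasal receptor gene Vmn2r57 (-0.72), which fell. Zc2hc1c (0.47), Pglyrp1 (0.43), which encodes a peptidoglycan recognition protein, and the condensin subunit Ncapd2 (0.17) rose. Srbd1, an RNA-binding protein, went from 267, 289 and 308 to 215, 232 and 276. Among the predicted genes and clones, the long noncoding RNA Gm12840 had the largest rise of all, 1.53 ± 0.315 (limma adjusted p = 0.0141), from 6.93, 11.2 and 20.2 counts to 9.67, 43.7 and 66.1. Gm15624 rose, and Gm15663, Gm10118 and 2810006K23Rik fell. Gm15624 is annotated as antisense, and the sources used here do not say whether counting used the strand.

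No gene of serotonin receptors, transport and breakdown was called. The list had 19 tested members, 6 above 0 and a median of -0.07. The transporter that fluoxetine blocks, Slc6a4, was not among the genes tested. Htr1f, the receptor with the smallest p, was at -0.30 ± 0.136 (limma adjusted p = 0.318). Htr2a, the main excitatory receptor of cortical pyramidal cells, was at -0.17 ± 0.0979 and Htr1a, an inhibitory receptor, at -0.13 ± 0.116. Htr2c was at 0.09 ± 0.18. In each of these 4 the ranges of the treatments overlapped widely, as for Htr2a with 1350 to 1890 under vehicle and 1030 to 2140 under fluoxetine.

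Neuronal activity genes were mostly lower but varied far more between libraries than between treatments. Of 20 immediate early genes 2 lay above 0, the median was -0.14 and none was called. Arc, an effector of synaptic scaling, was at -0.43 ± 0.375, from 1380, 3570 and 8720 with vehicle to 629, 2820 and 5250 with fluoxetine. Fos had -0.11 ± 0.342. Of 23 genes of cholesterol synthesis 4 lay above 0, with a median of -0.09 and no call. Stard4, a sterol carrier, was at -0.18 ± 0.052 (limma adjusted p = 0.0843).

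Lists for BDNF and TrkB signalling, perineuronal nets, the clock, neuropeptides and mitochondrially encoded transcripts had medians between -0.03 and 0.01 and no call. So did the corepressor complex of Tbl1xr1, with a median of 0.01 over 11 members. Markers of upper-layer neurons had 1 of 10 above 0 and a median of -0.11, led by Rorb at -0.25 ± 0.0842 (limma adjusted p = 0.14).

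**Figure D4:**
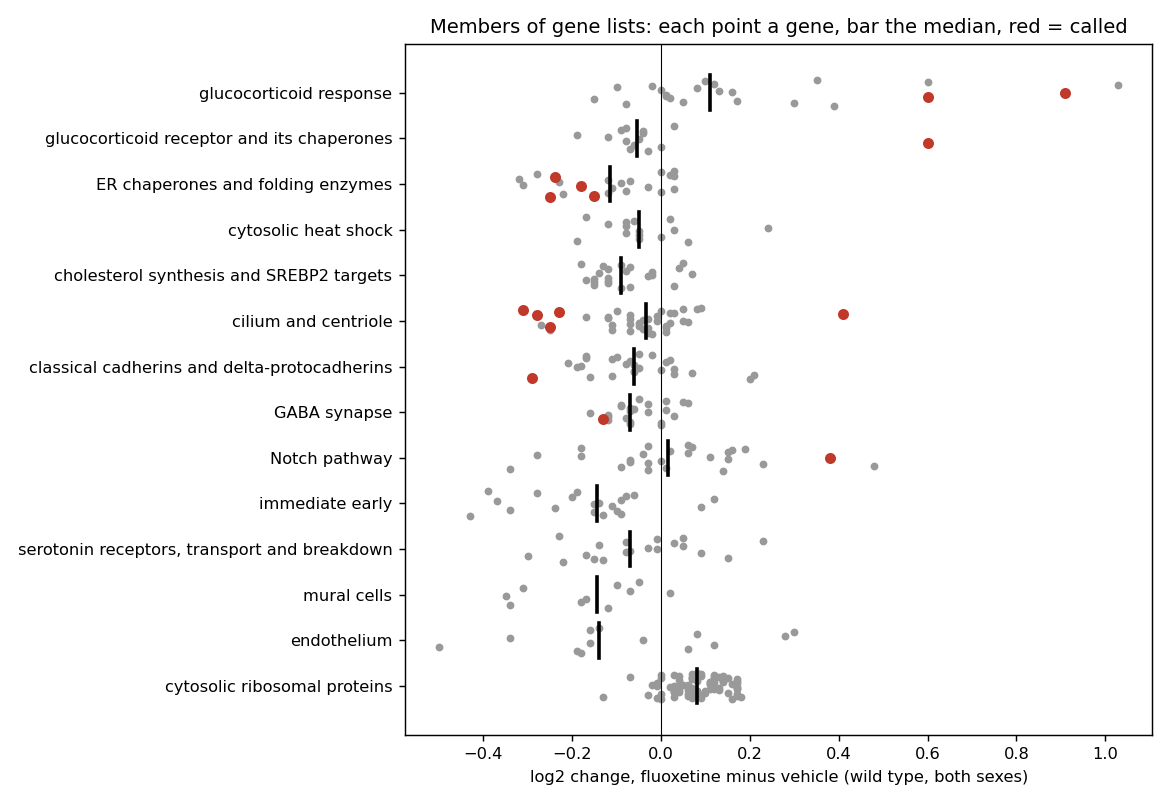
Log2 change of fluoxetine against vehicle in WT (horizontal axis) for the tested members of 14 gene lists; each point is a gene, red points are called and the black bar is the median of the list. The ER chaperones centre on -0.12 with 4 red points to the left, and the ribosomal protein genes on 0.08 with none.

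In females alone 155 genes were called, or 0.933% of those tested: 102 rose (0.614%) and 53 fell (0.319%). Of these 11 and 18 were also called over both sexes. In males alone limma called 0 genes (0%). Without adjustment 1199 had a limma p under 0.05, and the other tools, edgeR and DESeq2, called 0 and 2. The smallest male p-values were those of Ntsr1, at 0.56 ± 0.122, Palmd, at -0.54 ± 0.124, and Map3k6, at 0.86 ± 0.201 (limma adjusted p = 0.391 for each). Of the female rises 54 of 102 had the same sign in males, and of the female falls 40 of 53.

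Among listed genes, the female calls included several that were not called over both sexes. Few of the 155 female calls held under other fits. With the trends on GC content and length removed 2 of them stayed called, and 9 when only the 20 libraries compared were fitted. Creb1, the transcription factor that many activity signals converge on, fell by 0.29 ± 0.0767 in females (limma adjusted p = 0.0447) and was at -0.03 in males. Nlgn2, the adhesion protein of inhibitory synapses, rose by 0.13 ± 0.0305 (limma adjusted p = 0.027) and was at -0.01 in males. The kainate receptor subunit Grik5 rose by 0.20 ± 0.0468 (limma adjusted p = 0.0245) and the Notch ligand Jag2 by 0.26 ± 0.064 (limma adjusted p = 0.0272), with 0.03 each in males. Zbtb16 rose by 0.53 ± 0.127 in females (limma adjusted p = 0.027) and was at 0.17 in males. For these 5 genes the difference between the sexes itself did not pass, with limma adjusted p of 0.292 for Nlgn2 and more for the others.

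The difference between the sexes was called in 3 genes, 0.0181% of those tested, each with a positive change in females and a negative one in males. Tmem121, a membrane protein, had 267, 251, 307, 248 and 284 counts in vehicle females and 325, 397, 454, 418 and 473 in fluoxetine females. In males it had 357, 354, 329, 379 and 315 with vehicle and 260, 269, 299, 328 and 354 with fluoxetine. The female groups did not overlap and the male groups did, and the female minus male difference of the effect was 0.80 (limma adjusted p = 0.0201). Zfp771, a zinc finger gene, was at 0.46 in females and -0.23 in males, a difference of 0.69 (limma adjusted p = 0.0201). Fam171a2, a membrane protein, was at 0.30 and -0.10, a difference of 0.40 (limma adjusted p = 0.0324).

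Composition differed between the same groups. Olfactory bulb markers, at a median of 0.20 over both sexes, had a median of -1.01 in females, with 0 of 12 above 0, and 1.39 in males, with 12 of 12 above 0. Their summed level was 5350 to 25500 in vehicle and 6070 to 12500 in fluoxetine females, and 4380 to 43600 in vehicle and 9170 to 40700 in fluoxetine males. With the mean log2 level of these markers as a covariate, 0 genes were called for the sex difference. Over both sexes 185 were then called, all 61 among them. With striatal markers as the covariate there were 83 calls, again including all 61. Other marker lists also had medians of opposite sign in females and males. These were -0.32 and 0.33 for proliferation and immature neurons, -0.10 and 0.26 for leptomeninges, and -0.43 and 0.29 for blood. Excitatory neurons, the other way, were at 0.11 and -0.14. Choroid plexus was at -0.99 and 0.24, but vehicle female 4 alone had 33400 in summed choroid plexus markers. The group medians were 316 in vehicle and 242 in fluoxetine females. Without vehicle female 4 the choroid plexus median over both sexes changed sign.

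Base composition moved with the change, and mainly in females. The risen genes had a median transcript GC content of 55.2% and the fallen genes 43.3%, beside 49.4% for all tested genes. Cdh10, at 33.8%, was the lowest of the fallen. Across genes, which are not independent replicates, Pearson's r between change and GC content was 0.294 in females, -0.006 in males and 0.226 over both. With genes split into 10 equal sets by GC content, the female median was -0.102 in the lowest set and 0.133 in the highest. The male medians were 0.007 and -0.013. Among gene lists the median GC content was 46.7% for the cilium, 49.5% for ER chaperones and 53.8% for glucocorticoid-responsive genes. The sets of genes that include these GC contents had medians over both sexes of -0.024, 0.008 and 0.031. Tmem121, Zfp771 and Fam171a2 had 63.4%, 68.7% and 66.8%. With each library's trend on GC content and length removed, 21 genes were called over both sexes and 2 in females.

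That removal kept 14 of the 61 calls: Map3k6, Fkbp5, Calr, Gkn3, Mkks, Bbs7, Nek10, Unc5c, Mettl4, Srbd1, Zc2hc1c, Gm12840, Gm15663 and 2810006K23Rik. The other 47 calls, among them those of Canx, Hsp90b1, Pdia6, Klf15, Cdh10, Ksr1 and Lfng, did not pass after it. With the trends removed Cdh10 was at -0.24 in place of -0.29 (limma adjusted p = 0.161), Ksr1 at 0.24 in place of 0.28 (limma adjusted p = 0.057) and Lfng at 0.32 in place of 0.38 (limma adjusted p = 0.0555). Canx was at -0.11 in place of -0.15 (limma adjusted p = 0.231), and Pdia6 at -0.24 with and without the removal (limma adjusted p = 0.092 after it). Map3k6, Mkks, Gkn3, Bbs7, Mettl4, Srbd1, Calr, Cdh10, Gm15663, Tbl3, Fastkd2, Unc5c and Ksr1, 13 in all, stayed called whichever of the 20 libraries was left out. The rest lost the call without at least 1 library. The fewest, 18 of the 61, remained without fluoxetine female 5 and without vehicle male 2, the library with 43600 in olfactory bulb markers. When only the 20 libraries compared were fitted, 11 genes were called, 10 of them among the 61.

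**Figure D5:**
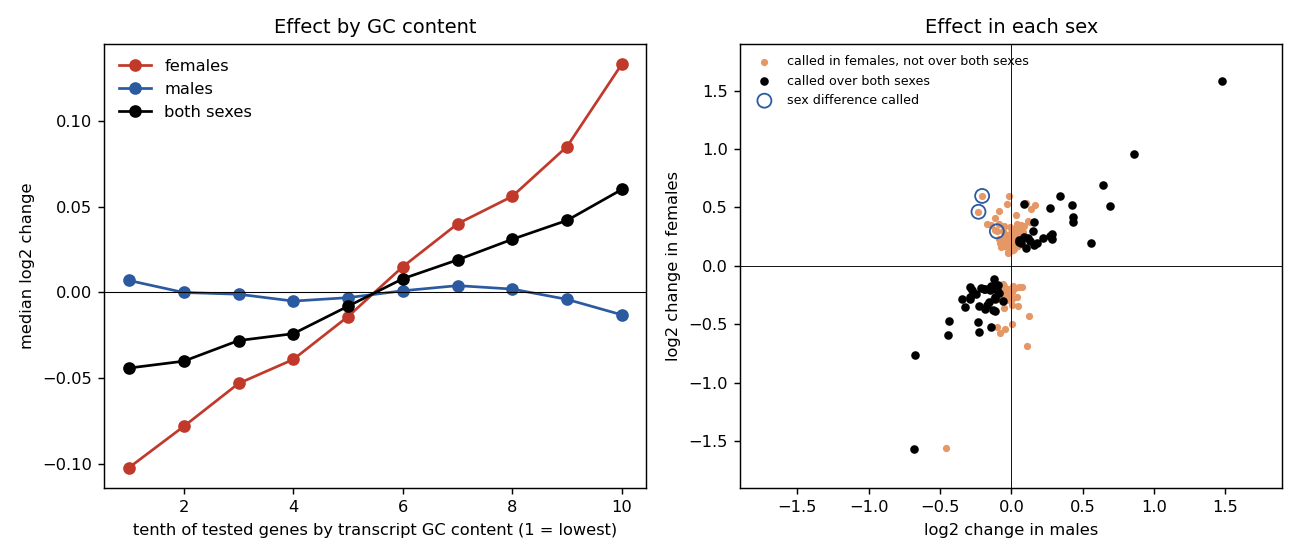
Left, median log2 change (vertical axis) in each of 10 equal sets of the tested genes, ordered by transcript GC content (horizontal axis), for females, males and both; the female line climbs from -0.102 to 0.133 and the male line stays between -0.013 and 0.007. Right, log2 change in females (vertical) against males (horizontal) for called genes; the 61 called over both sexes (black) share their sign, and the 3 with a called sex difference are ringed.

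In HT pups the same comparison, of 10 fluoxetine with 10 vehicle libraries, gave smaller changes for these genes. Of the 26 risen genes 23 had the same sign in HT, with a median of 0.10, and of the 35 fallen genes 33, with a median of -0.07. Over all 16606 tested genes, 10186 had the same sign in both genotypes. The called genes were picked for their change in WT, so nothing is read from smaller values elsewhere. Map3k6 was at 0.63 ± 0.142 in HT, Fkbp5 at 0.43, Gkn3 at -0.97, Calr at -0.13 and Ksr1 at 0.12. The WT minus HT difference of the effect was called by limma in 0 genes (0%). Without adjustment 793 had a limma p under 0.05, while edgeR called 0 genes and DESeq2 1. The steroidogenic transport gene Star was among the smallest p, at 0.34 in WT and -0.46 in HT (limma adjusted p of the difference = 0.643).

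Lithium in WT was compared with the same vehicle libraries, so its values share these controls and are given only side by side. Map3k6 was at 0.34 with lithium and 0.91 with fluoxetine, Fkbp5 at 0.05 and 0.60, Gkn3 at -0.82 and -1.13, Lfng at 0.35 and 0.38, Nnmt at 0.61 and 0.67, Calr at -0.01 and -0.25, and Mkks at 0.01 and -0.28. For the ER chaperone list the medians were 0.02 with lithium and -0.12 with fluoxetine. For the list of glucocorticoid-responsive genes they were 0.16 and 0.11, with 19 and 18 of 22 members above 0.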

How the data were processed

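RNA from prefrontal cortex was sequenced with a stranded mRNA kit, per the labels' protocols. In the deposited table of 18088 genes by 58 libraries the values are a signal: read counts per gene, normalised by 1 size factor per library, as the values themselves show. Per the submitters' processing notes, the tools were DESeq2 1.19.11, R 3.6.0 and Salmon 0.11.2, on GRCm38. At a tolerance of 0.0001, 100% of values were whole multiples of 1 step per library, so whole counts were recovered. The values do not tell whether these are counted reads or rounded estimates. Differential expression used limma 3.58.1 (R 4.3.3, mean-variance trend) on log2(value + 1), which understates changes of low genes, for 16606 genes with a mean of at least 10. The 12 group means were fitted to 58 libraries, leaving 46 residual degrees of freedom. Contrasts were fluoxetine minus vehicle over both sexes, in each sex, its difference between sexes and between genotypes. Alternatives were edgeR 4.0.16 (17757 genes) and DESeq2 1.42.0 on recovered counts, other pseudocounts, filters, scalings, weights, covariates, a replicate block and leaving out each library. The script was tested on simulated data.

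Gene names, positions and GC content came from GENCODE M21, which matched 18077 IDs, and promoters from RefSeq (GRCm38.p6). The comparison and the 42 gene lists (24 for pathways, 18 for cell types and regions) were chosen with earlier results of these data known. Named were all called genes and the members of each list with the smallest p (up to 3); a few others, such as Hspa5, Plin4, Sgk1 and Arc, were named for their role after their values were seen. Lists are described by counts and medians only. Those not described for both sexes together, the remaining cell type markers, had medians over both sexes between -0.08 and 0.06 and no call. The exception was choroid plexus at -0.38, with no call and vehicle female 4 apart. The sources used here do not state how multi-mapping reads were assigned.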

Additional observations from a re-analysis of the deposited data

Results flagged for a closer look

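Within groups of 5 libraries, 10 of 224 gene and group pairs had 1 library far from the other 4 by Dixon's test, and chance flags about 1 in 20 groups. The libraries fluoxetine female 1 and fluoxetine male 1 recur. Calr was at 10000 in fluoxetine female 1, where the next value was 8110, and at 9450 in fluoxetine male 1, where the next was 7820. Pdia6 was at 2970 in fluoxetine male 1 against a next value of 2320. Fluoxetine female 1 also stood apart in Cdh10 (1470, next 1770), Lfng (748, next 529), Plekha7 (970, next 1120) and Phkb (980, next 788). Of the rest, Map3k6 was at 133 in vehicle male 5 (next 62.1), Unc5c at 1020 in fluoxetine female 2 (next 865) and Psmd4 at 2020 in fluoxetine male 5 (next 2080).

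The fluoxetine effect differed between females and males for Tmem121 by 0.80, for Zfp771 by 0.69 and for Fam171a2 by 0.40 on the log2 scale (limma adjusted p = 0.0201, 0.0201 and 0.0324). Olfactory bulb markers and GC content moved with this difference, as the report gives.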

How the results depend on the processing

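Over both sexes 61 genes were called. The count was 229 with DESeq2, 859 with array weights, 185 with the olfactory bulb covariate, 37 with median centring, 21 with GC and length trends removed and 11 when only the groups compared were fitted. In females the 155 calls became 447 with DESeq2, 2807 with array weights, 2 with the trends removed and 9 with only the groups compared. In males DESeq2 called 2 genes. The 3 calls for the sex difference became 13 with DESeq2, 325 with array weights and 0 with the trends removed, the olfactory bulb covariate or only the groups compared. For the genotype difference DESeq2 called 1. The causes were not tested.

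The replicate numbers were also fitted as a block, giving 32 calls over both sexes (13 rose, 19 fell) and 0 for the sex difference. Same-numbered libraries did not deviate together: of 10 pairs 2 correlated above 0.1 (range -0.282 to 0.12), and 0 correlated best with its own number.

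Leaving out each library gave 18 to 347 calls over both sexes. There were 175 without fluoxetine female 1, 24 without female 3, 30 without female 4 and 18 without female 5. There were 347 without fluoxetine male 1, 32 without male 2, 24 without male 3 and 22 without male 5. Without vehicle female 1, 2, 4 or 5 there were 24, 34, 92 and 29, and without vehicle male 2 or 3 there were 18 and 34. The other 6 libraries moved the count by less. In females the range was 11 to 310: 310 without fluoxetine female 1, 32, 34 and 11 without fluoxetine female 3, 4 and 5, and 33, 39 and 50 without vehicle female 1, 2 and 5. In males it was 0 to 2, with 2 without vehicle male 5. For the sex difference it was 0 to 52, with 52 without vehicle male 2, 8 without vehicle female 3 and 5 without fluoxetine female 1. It was 0 without fluoxetine female 3, 4 or 5, fluoxetine male 3, vehicle female 1 or 2, or vehicle male 4, and 1 without fluoxetine male 1 or 2, vehicle female 4 or vehicle male 5. For the genotype difference it was 0 throughout.

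Of the calls over both sexes 42.6% were rises; with upper-quartile rescaling this was 31.9% (22 rose, 47 fell), and with trends removed 28.6%. In females 65.8% became 47.2% with upper-quartile rescaling. No called gene changed direction in any of the 34 alternatives: of 2065 values 1425 kept the call and 640 lost it.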
